A study of Mus musculus with 6 samples.

Results

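The genes described here make, sense, store and move cholesterol. The list was drawn up from known roles in sterol metabolism and holds 29 genes, of which 19 encode enzymes of cholesterol synthesis, 5 encode proteins of the sterol sensor and 5 encode proteins of sterol transport, storage and efflux. On the arrays, 27 of the 29 had a probe set that names the gene alone, out of 18193 genes named in this way. Acat2 and Soat1 were without such a probe set and have no value. The list does not rest on measured values, but it was chosen with earlier results of these arrays known.

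The RNA came from whole uterus at 3.5 dpc and was measured on Affymetrix mouse arrays, 3 for the control genotype Arid1a f/f and 3 for Arid1a d/d. Both genotypes carry floxed Arid1a, and the Arid1a d/d mice (Pgr cre/+ Arid1a f/f) also carry Cre at the Pgr locus, which deletes the floxed part in PGR-expressing cells while other uterine cells keep it. Cre-only mice were not among the samples, and the Cre allele and the loss of Arid1a cannot be told apart. Females had been mated with C57BL/6 males, their age is not given for these arrays, and it is not stated that every sample was a separate mouse, so p-values here reflect spread between samples that may be technical. The values are normalized intensities on a linear scale, with no detection calls, and were compared as log2 values with limma. Positive log2 fold changes stand for higher values in Arid1a d/d. A gene was called higher or lower at an adjusted p under 0.05 (Benjamini-Hochberg, adjusted across the whole array). Levels of different genes were not compared, because probe sets differ in their response. Sums of intensity over a list are to be read between arrays only, and bright probe sets weigh most in them.

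Cells make cholesterol from acetyl-CoA through mevalonate, isoprenoid diphosphates and squalene, and the same isoprenoids also serve protein prenylation, dolichol and ubiquinone. When sterols in the endoplasmic reticulum run low, SCAP carries the SREBP transcription factors to the Golgi, where they are cleaved and then raise transcription of synthesis genes. INSIG proteins hold the SCAP complex back when sterols are plentiful, and the oxysterol-activated LXR receptors raise the exporters ABCA1 and ABCG1. In the uterus around implantation, cholesterol is a part of new membranes and of lipid rafts.

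The deleted gene was checked first. Arid1a intensity was 83.6, 86.9 and 104 on the Arid1a f/f arrays and 51.9, 51.9 and 58.2 on the Arid1a d/d arrays (log2 fold change -0.76 ± 0.12 (standard error), adjusted p = 0.0120, limma), and the genotypes did not overlap. Whether its probes fall within the deleted exons is not known here. The arrays correlated with each other at r = 0.976 to 0.992 over log2 values. Arid1a d/d replicate 2 stands apart for the genes described below, and counts, medians and fold changes without it are given with the other left-out arrays.

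Of the 27 sterol genes, 4 rose in Arid1a d/d uteri and 1 fell. The genes that rose were Hmgcs1, Idi1 and Sqle, all enzymes of the synthesis route, and Insig1, which holds back SREBP activation. The gene that fell was Insig2, the other gene of the INSIG pair. Over all 18193 genes, 3.37% were called higher and 4.06% were called lower, against 4 of 27 and 1 of 27 here. The log2 fold change was above 0 for 24 of the 27, with a median of 0.60, beside a median of -0.02 over all genes. All 3 Arid1a d/d arrays lay above all 3 Arid1a f/f arrays for 14 of the 27 and below them for 3, where 13.4% and 16.0% of all genes did so. At an unadjusted p under 0.05, 15 were higher and 3 lower, where 11.4% of all genes were higher and 13.5% lower, so the share that was lower is near that of all genes.

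**Figure D1:**
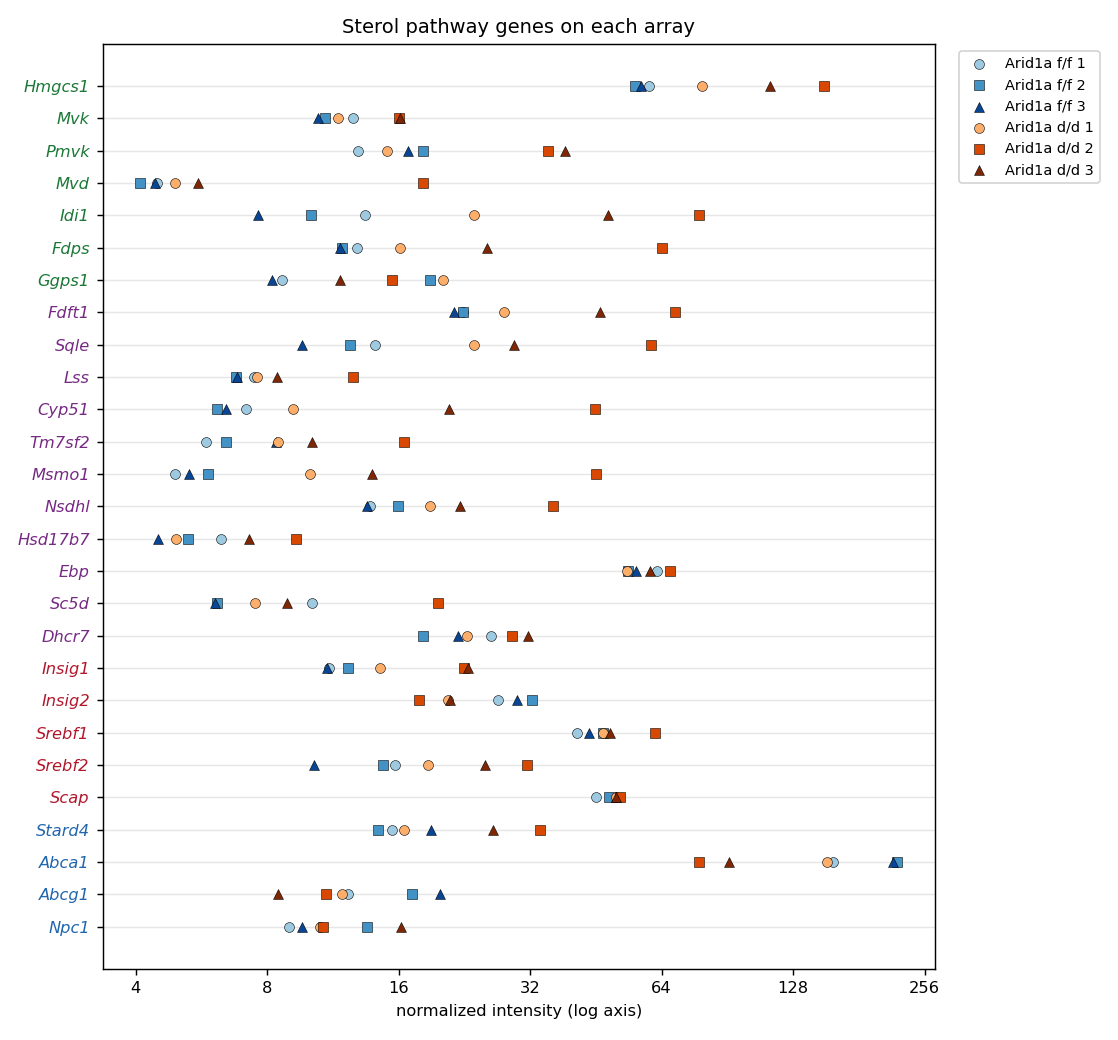
Normalized intensity (log axis) of the 27 sterol genes on each of the 6 arrays, with Arid1a f/f in blue and Arid1a d/d in orange and brown, and gene names coloured by role (green for mevalonate and isoprenoid enzymes, purple for squalene and sterol enzymes, red for sensing genes, blue for transport genes). Positions are to be read along a row and not between rows, and for 14 genes every Arid1a d/d array lies to the right of every Arid1a f/f array.

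Promoter sequences are shown for 8 members with a window in RefSeq (assembly GRCm38.p6), chosen after their values were seen. They are the called genes Hmgcs1, Idi1, Insig1 and Insig2, the enzymes next in log2 fold change (Msmo1 and Cyp51), and the sensing and transport genes nearest to a call (Srebf2 and Abca1), so that the letters of the motifs known from sterol-regulated promoters can be seen. Each line is the 150 bases before an annotated transcript start, read in the direction of the gene. Capitals mark TCACNCCAC (the sterol response element core, bound by SREBP), CACGTG (the E-box), CCAAT (the NF-Y box) and GGGCGG (the GC box, bound by SP1), each on either strand, so that ATTGG and CCGCCC are also in capitals. Hmgcs1 is shown from chr13:119690201-119690350 (plus strand), Idi1 from chr13:8885456-8885605 (plus strand), Cyp51 from chr5:4104698-4104847 (minus strand) and Msmo1 from chr8:64733579-64733728 (minus strand). Of the sensing genes, Insig1 is shown from chr5:28071262-28071411 (plus strand), Srebf2 from chr15:82147119-82147268 (plus strand) and Insig2 from chr1:121332590-121332739 (minus strand), which is 1 of its 3 windows and not the one at its RefSeq gene start. Abca1 is shown from chr4:53159896-53160045 (minus strand), also before a transcript start other than the gene start.
Hmgcs1: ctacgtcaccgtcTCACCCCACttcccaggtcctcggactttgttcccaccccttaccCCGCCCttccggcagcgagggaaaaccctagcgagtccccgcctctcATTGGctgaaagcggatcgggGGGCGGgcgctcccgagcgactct
Idi1: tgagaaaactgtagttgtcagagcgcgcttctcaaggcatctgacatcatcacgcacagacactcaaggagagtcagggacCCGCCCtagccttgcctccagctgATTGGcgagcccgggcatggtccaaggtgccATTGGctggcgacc
Cyp51: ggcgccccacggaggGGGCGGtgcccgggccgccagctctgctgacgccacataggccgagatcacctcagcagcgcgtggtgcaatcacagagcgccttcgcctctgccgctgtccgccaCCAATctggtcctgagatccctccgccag
Msmo1: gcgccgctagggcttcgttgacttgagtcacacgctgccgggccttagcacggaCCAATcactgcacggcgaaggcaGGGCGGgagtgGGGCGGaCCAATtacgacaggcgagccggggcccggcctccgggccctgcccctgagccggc
Insig1: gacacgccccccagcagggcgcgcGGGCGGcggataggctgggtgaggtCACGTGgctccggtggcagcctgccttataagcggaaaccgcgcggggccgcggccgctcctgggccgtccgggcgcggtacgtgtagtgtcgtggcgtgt
Insig2: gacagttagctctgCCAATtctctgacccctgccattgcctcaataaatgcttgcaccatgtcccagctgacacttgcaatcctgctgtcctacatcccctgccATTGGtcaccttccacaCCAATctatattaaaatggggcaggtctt
Srebf2: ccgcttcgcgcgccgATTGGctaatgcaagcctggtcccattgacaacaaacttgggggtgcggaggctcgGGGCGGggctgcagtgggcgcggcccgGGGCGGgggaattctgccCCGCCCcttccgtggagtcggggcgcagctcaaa
Abca1: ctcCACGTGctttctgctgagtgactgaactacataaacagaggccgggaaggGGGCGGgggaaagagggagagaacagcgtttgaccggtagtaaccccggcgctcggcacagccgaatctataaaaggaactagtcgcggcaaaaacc

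Of the 29 genes, 23 had at least 1 window in RefSeq, and Fdps, Fdft1, Sqle, Stard4, Abcg1 and Npc1 had none here. Over the full windows, from 250 bases before to 50 bases after the start, the CCAAT box stood in 20 of these 23 genes and in 15 of the 16 synthesis enzymes with a window, against 37.4% of all 32851 promoter windows and 42.0% of the genes named on the arrays. The GC box stood in 21 of the 23, against 35.7% of all windows and 57.3% of the genes named on the arrays. The E-box stood in 6 of the 23, against 7.15% of all windows and 10.2% of the genes named on the arrays. The 9-base sterol response element core was found in 1 of the 23, Hmgcs1, where it starts 137 bases before the transcript start, against 1.24% of all windows and 1.46% of the genes named on the arrays. No match overlapped a match of another motif. Only exact matches to the stated letters were counted, so a gene without a match may still hold a variant form of the element. These matches are descriptions of letters, and genes with several windows had more bases searched.

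**Figure D2:**
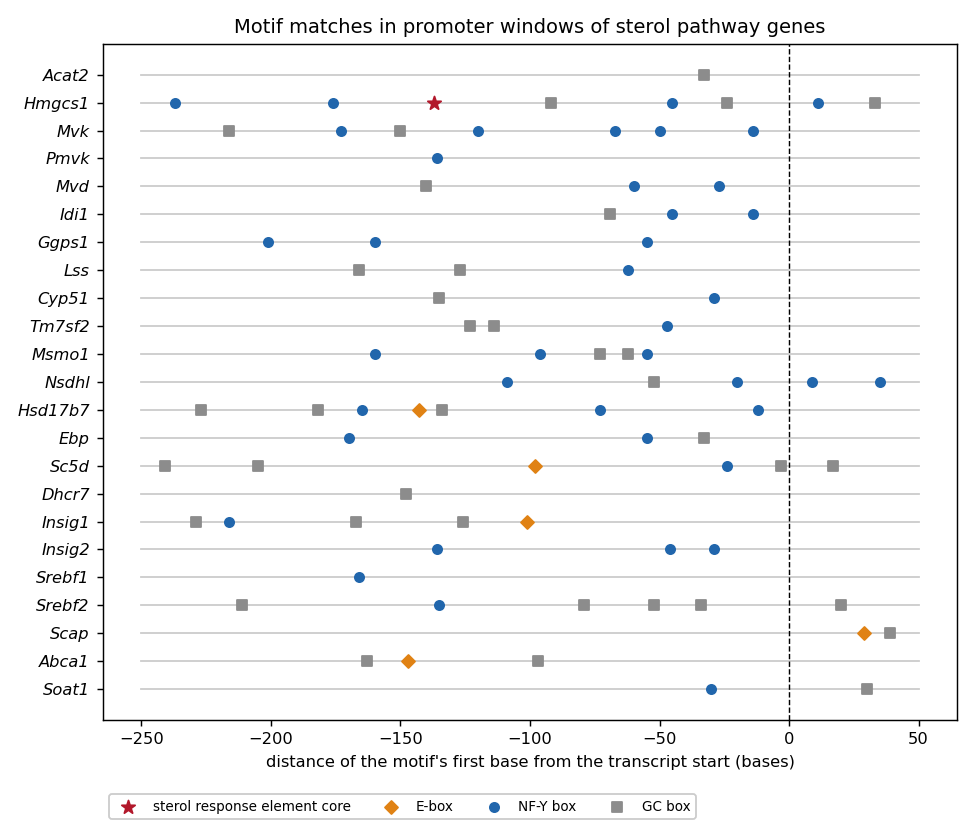
Motif matches in the promoter windows of the 23 sterol genes that had one, with distance from the transcript start in bases on the horizontal axis (dashed line at the start). For a gene with several windows, 1 window with a match is drawn; the star marks the sterol response element core of Hmgcs1, and blue points mark the NF-Y box.

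Among the 7 measured enzymes that lead from acetyl-CoA to isoprenoid diphosphates, 2 rose, none fell, and all 7 had log2 fold changes above 0 (median 0.87). Hmgcs1 encodes the cytosolic HMG-CoA synthase, which joins acetyl-CoA to acetoacetyl-CoA. Its intensity was 59.8, 55.7 and 57.3 on the Arid1a f/f arrays and 79.1, 151 and 113 on the Arid1a d/d arrays. The Arid1a f/f arrays lay close together and the Arid1a d/d arrays all lay above them, spread over a wide range. The log2 fold change was 0.94 ± 0.20 (standard error), with an adjusted p of 0.0366. Of its 4 other probe sets, 3 were also called higher, at log2 fold changes of 0.94, 0.98 and 1.05, and the other was at 0.18.

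Idi1 encodes isopentenyl diphosphate isomerase, which makes the allylic starter unit of isoprenoid chains. It had the largest log2 fold change of the 27 genes. Its intensity was 13.4, 10.1 and 7.62 on the Arid1a f/f arrays and 23.7, 77.8 and 48.3 on the Arid1a d/d arrays. The lowest Arid1a d/d array was replicate 1 and the highest replicate 2, and the genotypes did not overlap. The log2 fold change was 2.15 ± 0.38 (standard error), with an adjusted p of 0.0191, and a second probe set gave 2.28 (adjusted p = 0.0180).

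The other 5 enzymes of this stretch did not pass the test. Fdps encodes farnesyl diphosphate synthase, at the branch from which sterols and prenyl groups are made. Its intensity was 12.8, 11.9 and 11.7 on the Arid1a f/f arrays and 16.1, 64.2 and 25.5 on the Arid1a d/d arrays, without overlap (log2 fold change 1.30 ± 0.41 (standard error), adjusted p = 0.121). Most of its difference sat on Arid1a d/d replicate 2. Mvd, the mevalonate diphosphate decarboxylase, showed the same array more sharply, at 4.47, 4.10 and 4.44 on the Arid1a f/f arrays and 4.93, 18.2 and 5.55 on the Arid1a d/d arrays (log2 fold change 0.87, adjusted p = 0.317), and its value is also the median of the 7 enzymes. A second Mvd probe set, brighter in Arid1a f/f mice (mean 5.50 against 4.34), gave 0.13 (adjusted p = 0.741), so the size of the Mvd difference depends on the probe set. The first was used as the brighter over the 6 arrays, yet its mean was the higher only in Arid1a d/d mice (9.56 against 6.12). The kinases Mvk and Pmvk overlapped between genotypes, with log2 fold changes of 0.36 and 0.79 (adjusted p = 0.238 and 0.232). Ggps1, which makes the geranylgeranyl diphosphate used for prenylation, overlapped as well, at 0.49 (95% interval -0.23 to 1.21), and its 3 other probe sets ran from -0.34 to 0.14 with none called. In the probe set at -0.34, every Arid1a d/d array lay below every Arid1a f/f array (adjusted p = 0.200).

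The 11 enzymes from squalene to cholesterol also all had log2 fold changes above 0 (median 0.73), and 1 rose. Sqle encodes squalene epoxidase, which adds the first oxygen on the way to the sterol ring. Its intensity was 14.1, 12.4 and 9.61 on the Arid1a f/f arrays and 23.8, 60.5 and 29.3 on the Arid1a d/d arrays. Every Arid1a d/d array exceeded every Arid1a f/f array, with replicate 2 far above the others, and the log2 fold change was 1.55 ± 0.31 (standard error) (adjusted p = 0.0284).

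Msmo1 and Cyp51 had larger point estimates than Sqle but a wider spread, and neither passed the test. Msmo1, a methylsterol oxidase that removes methyl groups from the sterol ring, was at 4.91, 5.85 and 5.30 on the Arid1a f/f arrays and 10.02, 45.3 and 13.9 on the Arid1a d/d arrays (log2 fold change 1.79 ± 0.46 (standard error), adjusted p = 0.0645). Cyp51, the lanosterol demethylase, was at 7.16, 6.13 and 6.44 on the Arid1a f/f arrays and 9.16, 45.0 and 20.8 on the Arid1a d/d arrays (log2 fold change 1.64 ± 0.46 (standard error), adjusted p = 0.0855). In both genes the genotypes did not overlap, and the intensity on Arid1a d/d replicate 2 was more than that on the other Arid1a d/d arrays together. The next probe set of Cyp51 by intensity gave 1.32 (adjusted p = 0.0525) and the dimmest gave -0.03.

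Fdft1 encodes squalene synthase, the first step that is committed to sterols. Its intensity was 22.5, 22.4 and 21.4 on the Arid1a f/f arrays and 27.9, 68.6 and 46.4 on the Arid1a d/d arrays (log2 fold change 1.01 ± 0.27 (standard error), adjusted p = 0.0736), without overlap. A second, dimmer probe set of Fdft1 was called higher (1.32, adjusted p = 0.0359), and the other 2, whose means lay below the median of all intensities (3.12), were at -0.02 and -0.07. The dehydrogenase Nsdhl, which acts beside Msmo1, was at 13.7, 16.0 and 13.5 on the Arid1a f/f arrays and 18.9, 36.1 and 22.1 on the Arid1a d/d arrays (log2 fold change 0.78, adjusted p = 0.0825). Both genes showed the same order of the Arid1a d/d arrays, with replicate 1 lowest and replicate 2 highest.

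The remaining 6 enzymes of this stretch had log2 fold changes from 0.07 to 0.73, and none was called. The sterol reductase Tm7sf2 was at 0.73 (adjusted p = 0.136) and lanosterol synthase, Lss, at 0.41 (adjusted p = 0.266), both without overlap between genotypes, while the 2 other Lss probe sets gave -0.02 and 0.06. Sc5d, the lathosterol oxidase, was at 0.60 (adjusted p = 0.417), Hsd17b7, the ketosterol reductase, at 0.39 (adjusted p = 0.412), and Dhcr7, which reduces 7-dehydrocholesterol, at 0.34 (adjusted p = 0.318), and these overlapped. Ebp, the sterol isomerase, had the smallest difference of the 27 genes, 0.07 (95% interval -0.20 to 0.33). Over all 18 measured enzymes, limma called 3 higher and none lower at an adjusted p under 0.05, beside 3.37% and 4.06% of all genes. At an unadjusted p under 0.05, 12 were higher and none lower, beside 11.4% and 13.5% of all genes.

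**Figure D3:**
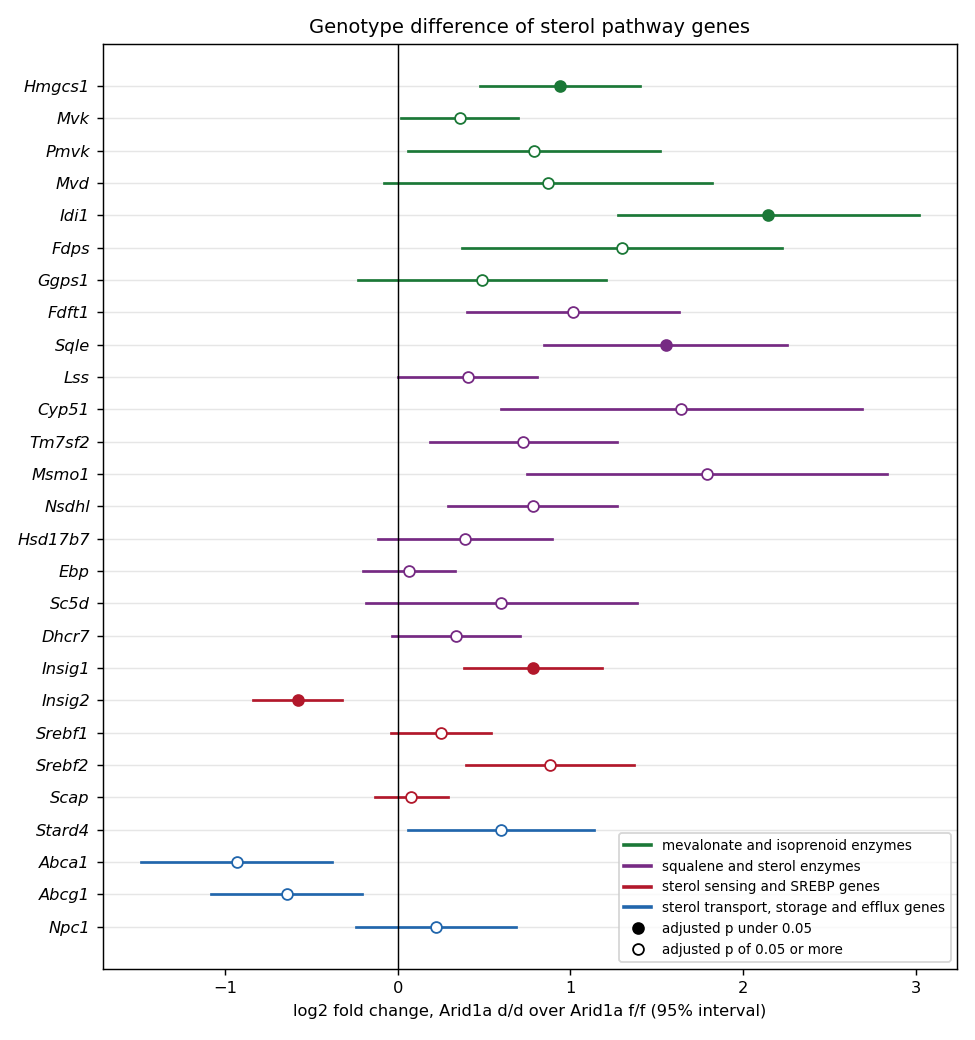
Log2 fold change of each sterol gene, Arid1a d/d over Arid1a f/f, with its 95% interval from limma (n = 3 arrays per genotype), coloured by role and filled where the adjusted p was under 0.05. All 18 synthesis enzymes lie above 0, and 3 of them, with Insig1 above 0 and Insig2 below 0, are filled.

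The genes that sense sterols went both ways, with 1 of the 5 called higher and 1 lower. Insig1, which is itself an SREBP target and retains the SCAP complex in the endoplasmic reticulum, had an intensity of 11.1, 12.2 and 10.9 on the Arid1a f/f arrays and 14.5, 22.6 and 23.0 on the Arid1a d/d arrays. All Arid1a d/d arrays were above all Arid1a f/f arrays, with replicates 2 and 3 at nearly the same value. The log2 fold change was 0.78 ± 0.18 (standard error), with an adjusted p of 0.0416.

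Insig2 encodes the second retention protein and is not driven by SREBP in the same way. Its intensity was 27.0, 32.2 and 29.8 on the Arid1a f/f arrays and 20.8, 17.9 and 21.0 on the Arid1a d/d arrays. Every Arid1a d/d array was below every Arid1a f/f array, and the spread within each genotype was small. This gave a log2 fold change of -0.58 ± 0.11 (standard error), with an adjusted p of 0.0268. The 2 other Insig2 probe sets, at -0.52 and -0.54, were not called (adjusted p = 0.115 and 0.175).

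Srebf2 encodes the SREBP that acts mainly on cholesterol genes. Its intensity was 15.7, 14.7 and 10.3 on the Arid1a f/f arrays and 18.7, 31.4 and 25.2 on the Arid1a d/d arrays, and the genotypes did not overlap (log2 fold change 0.88 ± 0.21 (standard error), adjusted p = 0.0543). A second probe set of like intensity disagreed, with means of 13.1 in Arid1a f/f and 13.6 in Arid1a d/d mice and a log2 fold change of 0.05 (adjusted p = 0.886), so the size of the Srebf2 difference depends on the probe set. Srebf1, whose product acts more on fatty acid genes, was at 40.9, 46.9 and 43.6 on the Arid1a f/f arrays and 47.0, 61.6 and 48.6 on the Arid1a d/d arrays. The ranges nearly touched, at 46.9 in Arid1a f/f replicate 2 and 47.0 in Arid1a d/d replicate 1, and the log2 fold change was 0.25 ± 0.13 (standard error) (adjusted p = 0.346). Scap, the escort protein, was at 0.08 (95% interval -0.13 to 0.29, adjusted p = 0.743).

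None of the 4 measured transport genes was called, and their median log2 fold change was -0.21. Abca1, which exports cholesterol and phospholipid to apolipoproteins, had an intensity of 158, 222 and 217 on the Arid1a f/f arrays and 153, 78.0 and 91.3 on the Arid1a d/d arrays. Arid1a d/d replicate 1 lay just below the lowest Arid1a f/f array, and the other Arid1a d/d arrays lay far below it. The log2 fold change was -0.93 ± 0.24 (standard error), with an adjusted p of 0.0681, and the 2 other Abca1 probe sets lay below the median of all intensities in both genotypes. Abcg1, the exporter to lipoprotein particles, was at 12.3, 17.1 and 19.9 on the Arid1a f/f arrays and 11.9, 10.9 and 8.48 on the Arid1a d/d arrays (log2 fold change -0.64 ± 0.19 (standard error), adjusted p = 0.104), again without overlap. Both exporters are known LXR targets, and neither difference passed the test.

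Stard4 carries cholesterol between membranes and is a known SREBP target, unlike the exporters. Its intensity was 15.4, 14.3 and 19.0 on the Arid1a f/f arrays and 16.5, 33.7 and 26.3 on the Arid1a d/d arrays (log2 fold change 0.60 ± 0.24 (standard error), adjusted p = 0.218), with Arid1a d/d replicate 1 inside the Arid1a f/f range. Its other probe sets gave 0.85 and 0.84, with adjusted p of 0.138 and 0.0639. Npc1, which moves cholesterol out of lysosomes, was at 0.22 (95% interval -0.24 to 0.68).

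The Arid1a d/d arrays kept a common order over the enzymes. Arid1a d/d replicate 2 was the highest of the 6 arrays for 14 of the 18 enzymes (77.8%), where this held for 18.2% of all genes and for 59.4% of the genes called higher. Replicate 1 was the lowest Arid1a d/d array for 17 of the 18 (94.4%), against 39.9% of all genes and 62.3% of the genes called higher. The summed intensity of the 18 enzymes was 305, 289 and 276 on the Arid1a f/f arrays and 365, 787 and 518 on the Arid1a d/d arrays. The median deviation of the enzymes from the Arid1a f/f mean, on the log2 scale, was 0.33, 1.36 and 0.60 on Arid1a d/d replicates 1, 2 and 3.

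Some marker lists had the Arid1a d/d arrays in the same order. In a whole uterus, fewer cells of a type and less RNA per cell cannot be told apart. Of 13 epithelial markers, 2 rose, Wnt7a (log2 fold change 1.07, adjusted p = 0.0339) and Cdh1 (0.92, adjusted p = 0.0119), with a median of 0.77 (0.39 without Arid1a d/d replicate 2). The direction was not shared by all, with 11 of the 13 above 0 and 2 below, Cldn3 (-0.39) and Cldn4 (-0.16), neither called. None of the 13 was called without Arid1a f/f replicate 2, 1 without Arid1a f/f replicate 1 or 3, and 2 to 3 when an Arid1a d/d array was left out. Their summed intensity was 1375 to 1456 in Arid1a f/f mice and 1450, 2766 and 1882 on Arid1a d/d replicates 1, 2 and 3. The 6 adipocyte markers summed to 476, 200 and 288 in Arid1a f/f mice and 309, 835 and 491 in Arid1a d/d mice, with none called and a median of 0.60 (0.24 without Arid1a d/d replicate 2). Fabp4 (1.16, adjusted p = 0.167) and Adipoq (1.00, adjusted p = 0.377) had the largest differences among them, and Lep stayed at 2.14 to 2.57, under the median of all intensities. Most of each adipocyte sum came from Car3, at 343, 152 and 211 in Arid1a f/f mice and 216, 590 and 336 in Arid1a d/d mice.

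Of 10 proliferation markers, 9 rose, led by Mcm5 (1.36), Kif11 (1.23), Bub1 (1.18) and Birc5 (1.14). Their summed intensity was 394 to 638 in Arid1a f/f mice and 797, 988 and 985 on Arid1a d/d replicates 1, 2 and 3. Their median deviation from the Arid1a f/f mean, on the log2 scale, had the same order, at 0.78, 1.17 and 1.13. Of 12 endothelial markers, 10 fell, led by Vwf (-1.46), Cdh5 (-1.45), Pecam1 (-1.33) and Esam (-1.32), and they summed to 638 to 659 in Arid1a f/f mice and 284 to 345 in Arid1a d/d mice. Without Arid1a f/f replicate 2 or 3, 1 proliferation marker was called higher and 6 endothelial markers lower. Without Arid1a d/d replicates 1, 2 and 3 in turn, 6, 4 and 3 proliferation markers were called higher, and without Arid1a f/f replicate 1, all 10 were. For every marker list, the calls with all 6 arrays stand beside 3.37% of all genes higher and 4.06% lower. The fits with an array left out stand beside 0.764% to 3.06% of all genes higher and 1.35% to 3.38% lower. The part of the epithelial, adipocyte, proliferation and endothelial markers in the sterol results was not tested.

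The other marker lists held at most 2 calls each. Of 12 stromal fibroblast markers, 2 fell, Dcn (-1.06) and Thy1 (-0.89), with a median of -0.44 and sums of 10757 to 11996 in Arid1a f/f and 8378 to 9874 in Arid1a d/d mice. All 12 were below 0, and 8 had every Arid1a d/d array below every Arid1a f/f array, where 16.0% of all genes did. Of 12 smooth muscle markers, 1 fell, Des (-0.64), with a median of -0.25 and sums of 7759 to 8842 in Arid1a f/f and 6996 to 8395 in Arid1a d/d mice. No stromal marker was called without Arid1a d/d replicate 2 or Arid1a f/f replicate 2, while leaving out Arid1a f/f replicate 1 gave 1, and no smooth muscle marker was called without any single array other than Arid1a d/d replicate 1, where 2 were. Of 12 macrophage markers, none was called, with a median of -0.27. Of these, 9 were below 0 and 3 above it, among them Cd68 (0.41, adjusted p = 0.239). Adgre1 (-0.95) and Aif1 (-0.92) differed most, both with a high value on Arid1a f/f replicate 3, and the list summed to 606 to 929 in Arid1a f/f and 524 to 661 in Arid1a d/d mice. The 5 ovarian steroidogenic markers summed to 13.7 to 15.8 on every array, with none called. Hsd3b1 (-0.37) and Inha (-0.16) differed most among them, and Cyp11a1, the gene for the enzyme that starts steroid synthesis from cholesterol, stayed at 2.02 to 2.76, below the median of all intensities.

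**Figure D4:**
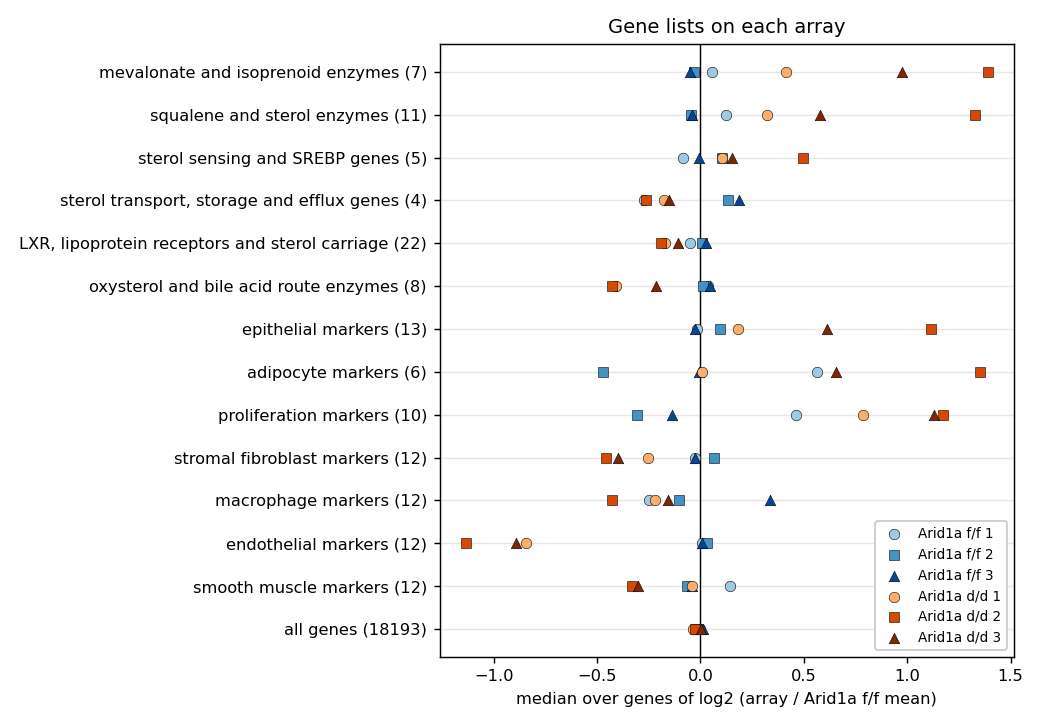
Median over the genes of each list of the log2 ratio of an array to the Arid1a f/f mean, for the 6 arrays, with the number of measured genes in brackets. The synthesis enzymes and the epithelial, adipocyte and proliferation markers all have Arid1a d/d replicate 2 farthest to the right. Replicate 1 is the lowest of the Arid1a d/d arrays for each of these lists. The sensing genes have the same order, and all 3 Arid1a d/d arrays lie at -0.84 or below for the endothelial markers.

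The calls depended on single arrays. Without Arid1a d/d replicate 2, Idi1, Sqle and Msmo1 were called higher and none of the 27 was called lower, where 1.68% and 2.13% of all genes were. The median log2 fold change of the 27 was then 0.37 and that of the 18 enzymes 0.50, down from 0.78. Among genes given above on all arrays, the log2 fold change without this array was 0.74 for Fdps, 0.27 for Mvd, 1.07 for Cyp51, 1.15 for Msmo1, 0.70 for Fdft1, 0.51 for Nsdhl and 0.37 for Stard4. Without Arid1a d/d replicate 1, 12 were called higher and 2 lower, with a median of 0.88, and 3.06% and 3.38% of all genes were. The genes called higher were then Hmgcs1, Pmvk, Idi1, Fdps, Fdft1, Sqle, Cyp51, Msmo1, Nsdhl, Insig1, Srebf2 and Stard4, and those called lower were Insig2 and Abca1. Without Arid1a f/f replicate 1, Idi1 was called higher and Insig2 lower, beside 1.76% and 2.20% of all genes. Without Arid1a d/d replicate 3, or Arid1a f/f replicate 2 or 3, none was called by limma. These fits also called fewer of all genes. The shares of all genes higher and lower were 1.65% and 2.37% when Arid1a d/d replicate 3 was left out. They were 0.764% and 1.35% for Arid1a f/f replicate 2 left out, then 0.951% and 1.53% for Arid1a f/f replicate 3. In these fits with 1 array fewer, the log2 fold change ran from 1.75 to 2.60 for Idi1, from 1.15 to 1.83 for Sqle, from 0.72 to 1.18 for Hmgcs1, from 0.67 to 1.00 for Insig1 and from -0.64 to -0.50 for Insig2.

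**Figure D5:**
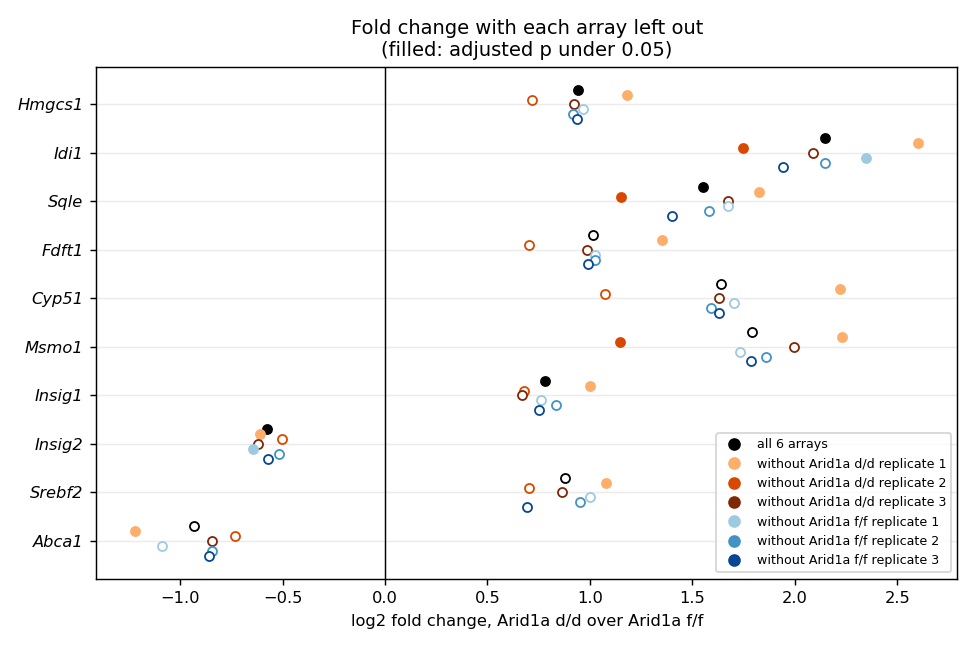
Log2 fold change of 10 sterol genes, Arid1a d/d over Arid1a f/f, with all 6 arrays (black) and with each array left out, filled where the adjusted p was under 0.05. Leaving out Arid1a d/d replicate 1 gives the largest values for the 8 genes above 0 and leaving out replicate 2 gives smaller values than all 6 arrays do, and no gene shown crosses 0.

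On the side of uptake, carriage and breakdown, the called genes were lower in Arid1a d/d mice. Of 22 measured genes for LXR partners, lipoprotein receptors and sterol carriage, 4 fell and none rose, with a median log2 fold change of -0.10. With all 6 arrays, 4.06% of all genes were called lower and 3.37% higher. Lipa, the lysosomal acid lipase that frees cholesterol from lipoprotein esters, was at 58.9, 53.5 and 58.0 on the Arid1a f/f arrays and 21.6, 18.7 and 20.2 on the Arid1a d/d arrays. Its arrays were tight within each genotype and far apart between them (log2 fold change -1.50 ± 0.10 (standard error), adjusted p = 0.000778). Scarb1, the HDL receptor, was at 65.6, 81.1 and 76.4 on the Arid1a f/f arrays and 37.2, 35.6 and 35.1 on the Arid1a d/d arrays (log2 fold change -1.04 ± 0.11 (standard error), adjusted p = 0.00321). Stard5, a sterol carrier, and Lrp1, an endocytic lipoprotein receptor, also fell, with log2 fold changes of -1.16 (adjusted p = 0.00566) and -0.62 (adjusted p = 0.0167). With each array left out in turn, 3 to 4 of the 22 were called lower and none higher. Over all genes, these fits called 1.35% to 3.38% lower and 0.764% to 3.06% higher.

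Of 8 enzymes that turn cholesterol into oxysterols and bile acids, 2 fell and none rose, with a median of -0.34. Among all genes, 4.06% fell and 3.37% rose. Cyp27a1, which makes an oxysterol that can activate LXR, was at 87.1, 87.0 and 84.1 on the Arid1a f/f arrays and 53.0, 21.3 and 39.0 on the Arid1a d/d arrays (log2 fold change -1.28 ± 0.28 (standard error), adjusted p = 0.0355). Its lowest array was Arid1a d/d replicate 2, the array where the synthesis enzymes were highest. The summed endothelial, smooth muscle and macrophage markers were also lowest on that array, and the stromal fibroblast markers on Arid1a d/d replicate 3. Hsd3b7, which modifies the sterol ring on that route, was at -0.60 (adjusted p = 0.0190). With each array left out in turn, 2 of the 8 were called lower without Arid1a d/d replicate 1, 0 without Arid1a f/f replicate 3, and 1 in each other case. The same fits called 1.35% to 3.38% of all genes lower.

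The other lists gave few calls, where 3.37% of all genes were called higher and 4.06% lower. None of 8 genes that cleave SREBP or degrade sterol-regulated proteins was called (median -0.03), and the largest differences were in Erlin1 (0.21, adjusted p = 0.411) and Syvn1 (0.16, adjusted p = 0.735). None of 11 genes that use isoprenoids was called (median 0.11), and the largest were Zmpste24 (-0.66, adjusted p = 0.135) and Fntb (0.31, adjusted p = 0.0955), both for the handling of farnesylated proteins. Of 4 genes for ketone bodies and acetoacetyl-CoA, Bdh1, the ketone body dehydrogenase, rose, at 8.13, 10.7 and 10.7 on the Arid1a f/f arrays and 31.0, 26.7 and 27.2 on the Arid1a d/d arrays (log2 fold change 1.53 ± 0.13 (standard error), adjusted p = 0.00176).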

How the data were processed

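Whole uterus at 3.5 dpc was measured on 6 arrays, 3 for Arid1a f/f and 3 for Arid1a d/d. RMA and global scaling were applied by the authors, whose deposited table holds a linear intensity for each probe set and array (1.29 to 4478.72), and log2 was taken here. The paper states a target trimmed mean for the arrays, and how the deposited values relate to it is not given (median of all intensities 3.12). Of 45037 probe sets, the platform annotation gives 34945 with 1 gene, which were used, 932 with several and 9160 with no name here. A gene was represented by its brightest such probe set. The test was limma (version 3.58.1, R 4.3.3) by lmFit and eBayes, two-sided, with Benjamini-Hochberg adjustment across the whole array, and the fit was tested on simulated data. The members and lists were chosen with earlier results of these data known. By rule, every member is named, with values on all arrays for called members and for Srebf1, Srebf2, Abca1 and Abcg1. Of every other list, up to 4 called genes are named, or the 2 largest differences where none was called. Lep, Car3 and Cyp11a1 were chosen after their values were seen, as were the other members given on all arrays. Alternatives were a replicate block, quantile normalization, centring on medians, a filter on dim probe sets, eBayes options, the methods' t-test, array weights, other probe sets, an offset of 4, another threshold and leaving out each array. The labels give no batch. The number of arrays limits the precision. Promoter windows are those of RefSeq, GRCm38.p6.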

Additional observations from a re-analysis of the deposited data

How the results depend on the processing

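The median log2 fold change of the 27 sterol genes stayed above 0 under every alternative, from 0.37 without Arid1a d/d replicate 2 to 0.88 without Arid1a d/d replicate 1. The counts moved more. With each array left out in turn, 0 to 12 genes were called higher and 0 to 2 lower. The methods' t-test with Benjamini-Hochberg adjustment called 0 sterol genes higher and 0 lower, and 0 of all 18193 genes either way, and its log2 fold change of -0.76 for Arid1a did not pass either. At an unadjusted p under 0.05 that t-test called 5 higher and 2 lower (9.51% and 10.6% of all genes). An offset of 4 before log2 gave 0 higher (3.09% of all genes), and an adjusted p under 0.10 gave 9 higher and 2 lower (5.74% and 6.69% of all genes). The causes of these shifts were not tested. The genotypes share replicate numbers in the labels, but same-numbered arrays did not all deviate together (r = -0.01, 0.06 and 0.20), so the numbers were not taken as pairs. With the replicate block, 6 were called higher (Msmo1 and Nsdhl besides the 4) and 1 lower (3.17% and 3.95% of all genes). With only 3 arrays per genotype and no detection calls, the table cannot tell a dim probe set from background.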
